A study of Mus musculus with 4 samples.

Results

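The 10 genes described here make up the cystine and glutathione route and its link to ferroptosis: Slc7a11, Slc3a2, Gclc, Gclm, Gss, Gsr, Gpx4, Acsl4, Aifm2 and Chac1. They were found by gene symbol among the 25050 genes of the deposited expression table, and all 10 were present. All 10 also passed the filter on low values, a mean over the 4 libraries of 10 normalised reads or more, as did 15540 genes in all. The list was drawn up because Slc7a11 was already known to be far lower in the overexpressing cells of this series. Every value of the same contrast is therefore given for these genes as a description, with its error and without a p-value.

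The study asked how the transcriptome responds to Nsmce1, and sequenced RNA of HT-22, an immortalised mouse hippocampal neuronal line, in 2 groups of 2 libraries. The first group is HT-22 cells that overexpress Nsmce1, which encodes a RING domain protein of the SMC5/6 complex, and the second is wild type HT-22 cells. Cells of both groups were in the same passage range and medium, and the labels name no other agent or allele in either. The library titles carry the tags pb (overexpression) and PBIP (wild type), whose meaning is not given here. The design text calls the construct inducible and the controls uninduced cells, while the genotype label of the controls is wild type. The sources used here do not give the inducing agent, its duration, or whether the overexpressing cells are 1 clone. An effect of Nsmce1 and any other difference between the cell populations cannot be told apart.

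Slc7a11 is the light chain of system xc-, a membrane exchanger that brings cystine into the cell and lets glutamate out, and Slc3a2 is the heavy chain that carries it to the surface. Inside the cell cystine is reduced to cysteine, which limits the synthesis of the tripeptide glutathione. Gpx4 spends glutathione to reduce lipid hydroperoxides, and ferroptosis is the iron-dependent form of cell death that follows when such hydroperoxides build up. HT-22 cells are a classic model of this route, because extracellular glutamate blocks their cystine uptake and kills them without the need for ionotropic glutamate receptors. Slc7a11 transcription is known to be raised by ATF4, the factor of amino acid shortage, and by Nrf2, the factor of oxidative stress, and to be lowered by p53.

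RefSeq promoter windows, 250 bases before to 50 bases after a gene's start in build GRCm38.p6, were found for 8 of the 10 genes. Gclc and Gsr are named only. The windows of Slc7a11 and Chac1 are shown because these were the only ones among the members to hold the ATF4 element searched, TGATGNAA on either strand (TTNCATCA on the other), which is set in capitals. The first lies at chr3:50443564-50443863 on the minus strand and the second at chr2:119350992-119351291 on the plus strand.
Slc7a11: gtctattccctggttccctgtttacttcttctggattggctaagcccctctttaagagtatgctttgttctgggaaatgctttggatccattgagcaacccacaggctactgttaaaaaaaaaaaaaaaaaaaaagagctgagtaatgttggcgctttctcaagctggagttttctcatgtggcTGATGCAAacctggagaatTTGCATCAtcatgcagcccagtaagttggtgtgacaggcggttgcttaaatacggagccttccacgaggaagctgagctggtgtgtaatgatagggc
Chac1: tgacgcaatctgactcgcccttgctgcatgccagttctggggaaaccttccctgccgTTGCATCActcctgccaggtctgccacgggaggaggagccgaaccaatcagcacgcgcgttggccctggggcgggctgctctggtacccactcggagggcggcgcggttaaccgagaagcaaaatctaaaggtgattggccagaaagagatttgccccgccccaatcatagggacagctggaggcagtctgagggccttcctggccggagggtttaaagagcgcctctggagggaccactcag
In the Slc7a11 window the element occurred at bases -66 to -59 on the plus strand of the gene and at -47 to -40 on the minus strand, counted from the start. In the Chac1 window it occurred at -193 to -186 on the minus strand. Of 32851 RefSeq windows of this length, 3.97% held at least 1 match and 0.0700% held 2 or more. The core of the antioxidant response element that Nrf2 binds, TGACNNNGC on either strand (GCNNNGTCA on the other), was matched among the members only in Gclm, at -134 to -126, and in 12.4% of all windows. The GC box GGGCGG, read as CCGCCC on the other strand, was matched in Slc3a2, Gclm, Gss, Acsl4, Chac1 and 3 of the 4 windows of Gpx4, against 35.7% of all windows. The TATA box letters TATAAA, read as TTTATA on the other strand, were found in none of the members' windows and in 13.6% of all. The Gpx4 windows that begin at chr10:80053315 and chr10:80053409 overlap, and their GC boxes are the same bases. Within a single window only the pair of GC boxes in Acsl4 overlapped each other. These are matches of letters, and binding was not measured.

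The overexpression libraries held 32516117 and 44602989 whole reads on genes, recovered from the table, against 25787452 and 31010351 in the wild type libraries. Nsmce1 itself stood at 17851 and 16525 normalised reads in overexpressing cells, against 1108 and 1206 in wild type cells, as the labels say. The labels do not say that replicates are separate cultures, so p-values reflect the spread among these 4 libraries alone, which may be technical. The neuronal label could be checked only in part: of 13 neuronal markers 8 were analysed here and 4 passed the filter. These 4 were Syn1 at 1024 to 1219, Tubb3 at 446 to 622, Camk2a at 30.5 to 108 and Syp at 6.29 to 17 over the libraries. Below the filter, Stmn2 was at 0 to 16.3, Slc17a7 at 2 to 5.03 and Nefm at 0 to 3. Dcx was at 0 in both overexpression libraries and in wild type replicate 2. Summed over the list, neuronal markers had 1541 and 1901 normalised reads in overexpressing cells, against 1948 and 1706 in wild type cells. Fibroblast and mesenchymal markers, 7 of 8 of them tested, summed to 343875 and 300682, against 375511 and 327249, mostly from collagen genes. Sums were 31 and 29.2 against 86.8 and 86.4 for astrocyte markers, with 4 of 6 analysed here and 2 tested, and 200 and 145 against 153 and 140 for microglial and leukocyte markers, with 5 of 6 analysed here and 2 tested. Ptprc was at 0 in all but wild type replicate 1. They were 48 and 30.7 against 30.2 and 51.6 for endothelial markers, with 3 of 5 analysed here and 2 tested, and 5204 and 5341 against 5959 and 5396 for oligodendrocyte lineage markers, with 4 of 6 analysed here, 3 tested and Cspg4 holding nearly all. Aldh1l1, the astrocyte marker with the lowest p, had 14 and 12.4 normalised reads in overexpressing cells, against 57.8 and 65.3 in wild type cells (limma adjusted p = 0.118). The part of these markers in the results below was not tested.

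In Nsmce1-overexpressing cells Slc7a11 (ENSMUSG00000027737, chromosome 3) was far below its wild type level, and the other 9 genes of the route lay within 0.5 of 0 on the log2 scale. The level of Slc7a11 was 44 and 57.7 normalised reads in overexpressing cells, against 570 and 660 in wild type cells. Both overexpression libraries lay far below both wild type libraries. These values rest on 44 and 79 whole reads in the overexpression libraries, against 453 and 627 in the wild type libraries. The means were 50.8 ± 9.66 and 615 ± 64.1 normalised reads (SD, n = 2 in each group), a mean 12.1-fold lower with overexpression. On the log2(normalised reads + 1) scale the fold change was -3.58, with a limma standard error of 0.201 and 95% limits of -4.07 and -3.09. In the fit over all 15540 genes 1 of the 10 genes, Slc7a11, passed an adjusted p of 0.05, beside 0.193% of all genes tested, 0.103% higher and 0.0901% lower. Slc7a11 was picked for that difference, so the count supports nothing. Its call was lost without wild type replicate 1 (log2 fold change -3.69) and without wild type replicate 2 (-3.47), where a single wild type library is assumed to vary like the overexpression pair, and in limma without a variance trend, and its value stayed between -3.77 and -3.39 without each library in turn. In bulk RNA fewer cells with Slc7a11 RNA and less of it per cell cannot be told apart.

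**Figure D1:**
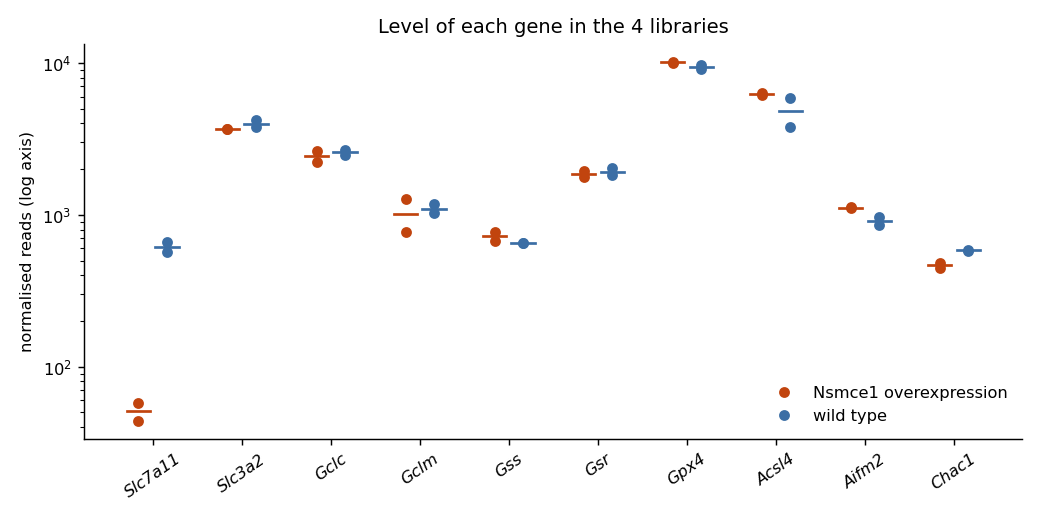
Normalised reads of the 10 genes on a log axis, with a point for each library and a bar at the group mean, Nsmce1 overexpression left and wild type right for each gene. Slc7a11 stands at 44 and 57.7 in overexpressing cells, against 570 and 660 in wild type cells, while among the other 9 genes the replicates lie furthest apart for Gclm in overexpressing cells, at 774 and 1261, and for Acsl4 in wild type cells, at 3805 and 5848.

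Over the 10 genes, 4 lay above 0 and 6 below, while 51.3% of all genes tested lay above 0. The groups did not overlap in 7 of the 10, 3 of them lower and 4 higher in the overexpressing cells, where 39.1% of all genes tested did not overlap, 18.3% lower and 20.8% higher. Because Slc7a11 is among the 3, and the list was made with this contrast in view, nothing is read from that share.

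**Figure D2:**
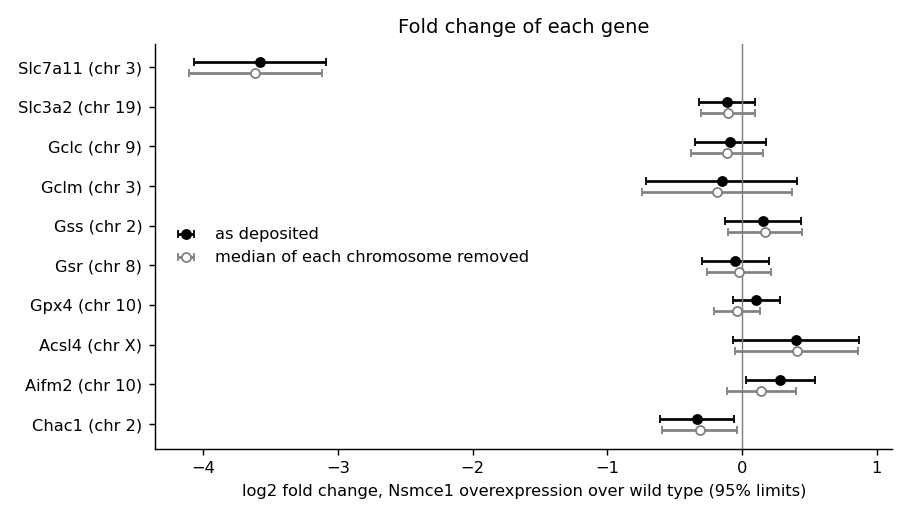
Log2 fold change of each gene, Nsmce1 overexpression over wild type, with 95% limits from limma over 4 libraries, as deposited (filled) and after subtracting each chromosome's median (open). Slc7a11 stands at -3.58, the other 9 genes lie within 0.5 of 0, and the chromosome 10 genes Gpx4 and Aifm2 differ between the filled and open points.

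Slc3a2, the heavy chain, had 3653 and 3699 normalised reads in overexpressing cells, against 3759 and 4190 in wild type cells. Both overexpression libraries lay just below both wild type libraries, and the log2 fold change was -0.11 (95% limits -0.32 and 0.098). The heavy chain also carries other light chains, and their RNA levels were set beside that of Slc7a11. Levels were set per kilobase of exon, with exon lengths from all GENCODE M21 transcripts of a gene, so that a gene with long or rare exons reads low. On that scale Slc7a11 stood at 0.305 and 0.395 per 100 of Slc3a2 in overexpressing cells, against 3.84 and 3.99 per 100 in wild type cells. Slc7a5, the LAT1 carrier of large neutral amino acids, stood at 85.8 and 103 per 100 of Slc3a2 in overexpressing cells, against 108 in both wild type libraries. Slc7a6, which exchanges basic and neutral amino acids, stood at 43.2 and 43.6 per 100, against 44.7 and 42.9. Slc7a7, a carrier of the same kind, stood at 5.27 and 4.29 per 100, against 5.56 and 4.17. Slc7a11 therefore lay far below Slc7a7 in the overexpressing cells, and close to it in wild type cells.

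**Figure D3:**
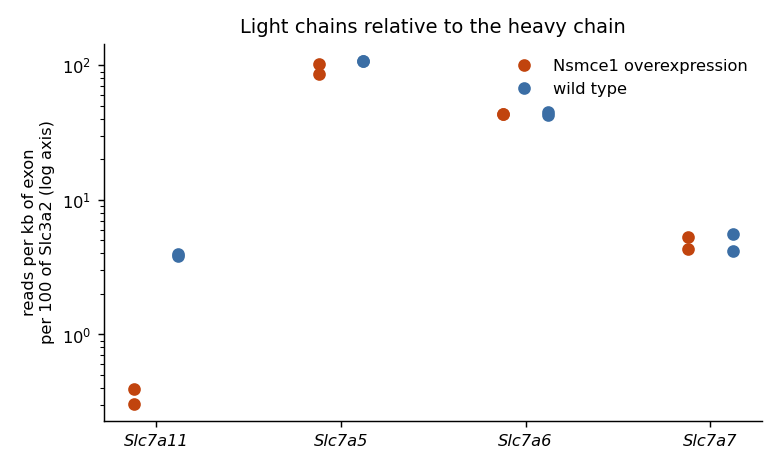
Normalised reads per kilobase of exon for the light chains Slc7a11, Slc7a5, Slc7a6 and Slc7a7, per 100 of the heavy chain Slc3a2. The axis is a log axis, with a point for each library, and Slc7a8 is not drawn. Slc7a11 is at 0.305 and 0.395 in overexpressing cells, against 3.84 and 3.99 in wild type cells, while Slc7a6 ranges over 42.9 to 44.7 in the 4 libraries.

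None of the 3 tested partners other than Slc7a11 passed the limma threshold over all genes, 1 of them had an unadjusted p under 0.05, and limma voom called 0. Slc7a5 had 3293 and 3997 normalised reads in overexpressing cells, against 4247 and 4736 in wild type cells (log2 fold change -0.31, limma adjusted p = 0.594). Slc7a8, another light chain, stood at 0.0579 per 100 of Slc3a2 in overexpression replicate 1 and was at 0 in the other 3 libraries.

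Glutamate-cysteine ligase makes the first and rate-limiting bond of glutathione, with Gclc as its catalytic and Gclm as its modifier subunit. Gclc had 2240 and 2642 normalised reads in overexpressing cells, against 2482 and 2683 in wild type cells (log2 fold change -0.085, 95% limits -0.35 and 0.18). Gclm had 774 and 1261 normalised reads in overexpressing cells, against 1020 and 1180 in wild type cells. The 2 overexpression libraries of Gclm lay on either side of the wild type pair, and its log2 fold change of -0.15 had wide 95% limits of -0.71 and 0.41. Without overexpression replicate 1 the value for Gclm was 0.20, and without overexpression replicate 2 it was -0.50. Per kilobase, Gclm stood at 20.7 and 28.6 per 100 of Gclc in overexpressing cells, against 24.6 and 26.3 in wild type cells.

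Gss, glutathione synthetase, adds glycine in the second step. It had 677 and 772 normalised reads in overexpressing cells, against 650 and 649 in wild type cells (log2 fold change 0.15, 95% limits -0.13 and 0.44). Gsr, glutathione reductase, restores the reduced form with NADPH, and had 1767 and 1954 normalised reads in overexpressing cells, against 1816 and 2033 in wild type cells (log2 fold change -0.048, 95% limits -0.30 and 0.20). The groups overlapped for Gsr, Gclc and Gclm, and for Gss the overexpression libraries lay slightly above the wild type pair. Gss overlaps Acss2 on the opposite strand, which had 1254 and 1082 normalised reads, against 1168 and 1101. Gclm likewise overlaps Gm17494 on the opposite strand, with 6 and 36.5 normalised reads, against 7.54 and 79.0, and a small nucleolar RNA inside Gsr, Gm24727, had 3 to 10.2 in any library. Use of strand in counting is not stated, so shared reads cannot be told apart.

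Chac1 works the other way and cleaves glutathione, and its transcription is driven by ATF4. It had 478 and 450 normalised reads in overexpressing cells, against 578 and 589 in wild type cells. Both overexpression libraries lay below the close wild type pair, with a log2 fold change of -0.33 (95% limits -0.61 and -0.056). After Slc7a11 it was the member furthest below 0, with a mean 1.26-fold lower, against 12.1-fold for Slc7a11.

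Gpx4, the selenoenzyme that reduces lipid hydroperoxides in membranes, was the most abundant of the 10 genes per kilobase in both groups. It had 10149 and 10038 normalised reads in overexpressing cells, against 9128 and 9623 in wild type cells (log2 fold change 0.11, 95% limits -0.066 and 0.28). Gpx4 lies on chromosome 10, where 564 of 752 tested genes lay above 0 and the median log2 fold change was 0.14. With chromosome medians removed the sign turned, at -0.036 (95% limits -0.21 and 0.14). A transcribed processed pseudogene, Gpx4-ps2, had 1657 and 1553 normalised reads, against 1490 and 1546, and reads can be split between it and Gpx4, which leaves the level of Gpx4 uncertain.

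Aifm2, also known as FSP1, guards membranes beside Gpx4 by keeping coenzyme Q reduced. It had 1124 and 1100 normalised reads in overexpressing cells, against 859 and 968 in wild type cells. The overexpression libraries lay above the wild type pair, with a log2 fold change of 0.29 (95% limits 0.031 and 0.54). Aifm2 is on chromosome 10 as well, and with chromosome medians removed its value was 0.14, with 95% limits of -0.11 and 0.40. H2afy2, which overlaps Aifm2 on the opposite strand, had 96 and 82.5 normalised reads, against 49.0 and 28.4.

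Acsl4 charges polyunsaturated fatty acids for entry into phospholipids and so sets the substrate of lipid peroxidation. It had 6345 and 6127 normalised reads in overexpressing cells, against 3805 and 5848 in wild type cells. Both overexpression libraries lay above both wild type libraries, but wild type replicate 1 lay far below the other 3, which were close together. The log2 fold change of 0.40 had 95% limits of -0.064 and 0.87, and was 0.092 without wild type replicate 1 and 0.71 without wild type replicate 2.

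The genes of the surrounding pathways were taken from 13 lists chosen by function, without the 10 members and with some genes in more than 1 list. Of 322 distinct genes, 283 were analysed here and 261 passed the filter. Of these, 109 lay above 0 and 152 below, and the median log2 fold change was -0.030, against 0.005 over all genes tested. With limma 0 of the 261 passed an adjusted p of 0.05 over all genes, 30 had an unadjusted p under 0.05, 11 higher and 19 lower, and limma voom on the recovered reads also called 0. That is 11.5% with an unadjusted p under 0.05, beside 7.92% of all genes tested. With 1 library left out the median over these genes ranged over -0.061 to -0.0064, and the median changed sign in 8 of the 13 lists, so the side of 0 of those lists rests on single libraries. They are the lists of glutathione use, sulfur amino acids, lipid enzymes, other guards, iron, selenoprotein synthesis, regulators and Nrf2 targets. Medians that kept their sign still ranged over -0.23 to -0.14 for the partners, -0.063 to -0.0050 for the amino acid carriers and -0.070 to -0.013 for the thioredoxin and NADPH list. None of the list genes named passed the threshold. The points furthest above 0, named after their values were seen, have low counts and a wild type library at 0. Gadl1, a decarboxylase of sulfur amino acids, had 51 and 66.4 normalised reads in overexpressing cells, against 0 and 64.2 in wild type cells. Heph, a copper-dependent iron oxidase, had 32 and 10.9 normalised reads, against 0 and 7.37.

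**Figure D4:**
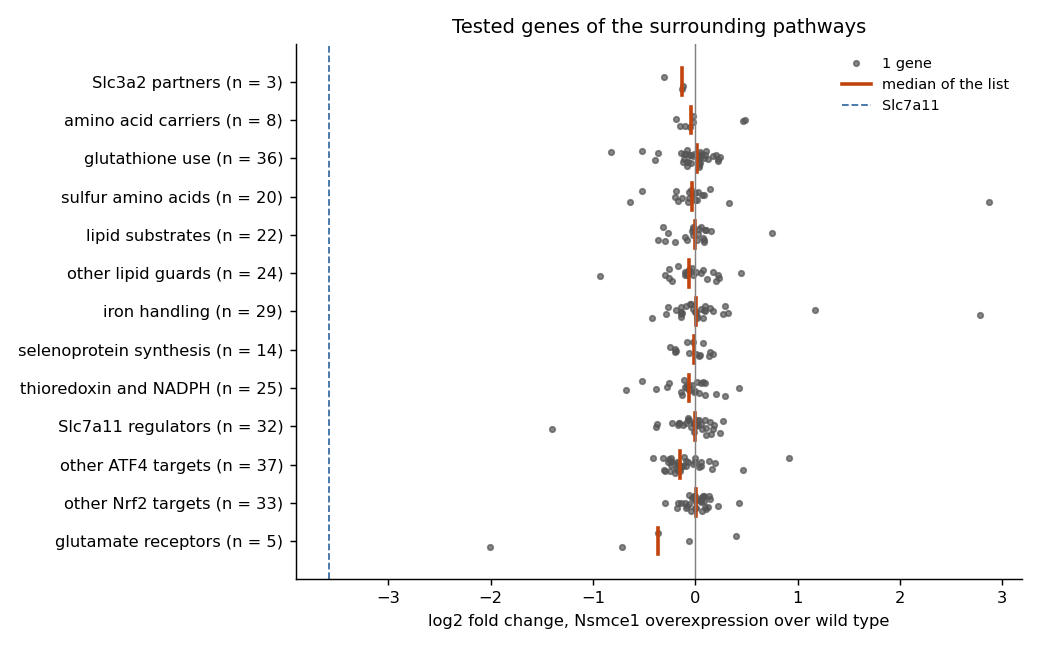
Log2 fold change, Nsmce1 overexpression over wild type, of each tested gene in 13 lists, with the list median as a vertical bar and Slc7a11 as a dashed line at -3.58. List medians lie between -0.36, for the 5 glutamate receptors, whose median is -0.061 at a filter of 50 normalised reads, and 0.012, and no list gene lies as low as Slc7a11.

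Cysteine can also be made from methionine by transsulfuration, or enter by other carriers. Of 20 tested genes of sulfur amino acid metabolism, 7 lay above 0 and 13 below, with a median of -0.036 and 2 unadjusted p-values under 0.05. The median was -0.13 with 14 below 0 without wild type replicate 1, and 0.0076 with 9 below 0 without wild type replicate 2. Mat2a makes S-adenosylmethionine, the first step from methionine. It had 8293 and 8217 normalised reads in overexpressing cells, against 13415 and 12345 in wild type cells, a log2 fold change of -0.64 (limma SE 0.0756 and adjusted p = 0.0583). The overexpression pair was tight and well below the wild type pair. Suox, sulfite oxidase, which lies on chromosome 10, stood at 0.33 (limma adjusted p = 0.501), and at 0.19 with chromosome medians removed. Cth, the enzyme that releases cysteine from cystathionine, had 421 and 450 normalised reads, against 451 and 544, and is named for this role and not for its value.

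Among 8 tested carriers of cysteine, glutamate, glutamine, glycine and basic amino acids, 2 lay above 0 and 6 below (median -0.038, 1 unadjusted p under 0.05). Slc1a3, a glial-type glutamate transporter that takes glutamate back up, had 4537 and 4245 normalised reads in overexpressing cells, against 3302 and 2956 in wild type cells, a log2 fold change of 0.49 (limma SE 0.0902 and adjusted p = 0.181). Slc7a3, a carrier of basic amino acids, had 136 and 129 normalised reads, against 90.5 and 101 (log2 fold change 0.47, limma adjusted p = 0.626). Both of these were named for their small p-values, and the other 6 carriers lay below 0, so nothing is read from their direction.

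Of 36 tested genes that use, break down or move glutathione, 18 lay above 0 and 18 below (median 0.012, 4 unadjusted p-values under 0.05). Oplah, which returns the 5-oxoproline left by glutathione breakdown to glutamate, had 88 and 101 normalised reads in overexpressing cells, against 151 and 186 in wild type cells (log2 fold change -0.83, limma adjusted p = 0.364). The exporter Abcc5 stood at 0.24 (limma adjusted p = 0.449), and at 0.084 with chromosome medians removed. Chac2, the relative of Chac1, had 358 and 375 normalised reads, against 350 and 428, and is named as its relative.

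Of 24 tested other guards against lipid peroxidation, 9 lay above 0 and 15 below (median -0.060, 4 unadjusted p-values under 0.05). The median was 0.014 with 11 below 0 without overexpression replicate 1, and -0.11 with 19 below 0 without wild type replicate 1. Qdpr recycles tetrahydrobiopterin, a radical-trapping cofactor. It had 906 and 922 normalised reads in overexpressing cells, against 1589 and 1902 in wild type cells, a log2 fold change of -0.93 (limma SE 0.115 and adjusted p = 0.0607). Its overexpression libraries were close together and both far below the wild type pair. Enzymes that make or oxidise the lipids of ferroptosis divided 11 above and 11 below 0 among 22 tested (median -0.002, 1 unadjusted p under 0.05). Scd1, a stearoyl-CoA desaturase that makes monounsaturated fatty acids, had 8177 and 6685 normalised reads, against 9162 and 9263 (log2 fold change -0.32, limma adjusted p = 0.548), and Acsl5, a relative of Acsl4, stood at -0.26 (limma adjusted p = 0.659).

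Iron genes divided 16 above and 13 below 0 among 29 tested (median 0.003, 2 unadjusted p-values under 0.05). Tfrc, the transferrin receptor that brings iron in, had 5482 and 6005 normalised reads in overexpressing cells, against 4629 and 4778 in wild type cells (log2 fold change 0.29, limma adjusted p = 0.441), and stood at 0.13 with chromosome medians removed. Cisd1, an iron-sulfur protein of the outer mitochondrial membrane on chromosome 10, stood at 0.32 (limma adjusted p = 0.494) and at 0.17 with chromosome medians removed. Fth1, the ferritin heavy chain, named for its role in iron storage, had 59322 and 61698 normalised reads, against 56956 and 59304.

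Genes that make selenoproteins such as Gpx4 divided 7 above and 7 below 0 among 14 tested (median -0.009, 0 unadjusted p-values under 0.05 with limma). Secisbp2l stood at 0.14 (limma adjusted p = 0.722) and the elongation factor Eefsec at -0.20 (limma adjusted p = 0.730). The thioredoxin system and NADPH enzymes divided 9 above and 16 below 0 among 25 tested (median -0.062, 5 unadjusted p-values under 0.05). The peroxiredoxin Prdx1 had 27774 and 30180 normalised reads in overexpressing cells, against 20692 and 22400 in wild type cells, a log2 fold change of 0.43 (limma SE 0.0818 and adjusted p = 0.203). Pgls, of the pentose phosphate route that makes NADPH, had 797 and 804 normalised reads, against 1060 and 1242 (log2 fold change -0.52, limma adjusted p = 0.284). The groups did not overlap for Prdx1 and Pgls, which were named for their small p-values, nor for 39.1% of all genes tested.

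Of 32 tested factors known to steer Slc7a11 transcription, 16 lay above 0 and 16 below (median -0.004, 4 unadjusted p-values under 0.05). Usp7, a deubiquitinase of the p53 pathway, stood at 0.27 (limma adjusted p = 0.418), and at 0.11 with chromosome medians removed, and Atf5, a relative of ATF4, at -0.39 (limma adjusted p = 0.549). The main factors are named for their role. Atf4 had 7041 and 7273 normalised reads in overexpressing cells, against 7801 and 8267 in wild type cells, Nfe2l2, which encodes Nrf2, had 4670 and 4298, against 4328 and 4441, and Trp53 had 4163 and 4982, against 4801 and 5408. For Nfe2l2 and Trp53 the groups overlapped, and for Atf4 the overexpression pair lay below the wild type pair, with a log2 fold change of -0.17 (limma adjusted p = 0.657).

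Other ATF4 targets, 37 of them tested, lay below 0 in 27 cases and above in 10, with a median log2 fold change of -0.15 and 5 unadjusted p-values under 0.05, where 48.7% of all genes tested lay below 0. The median against the wild type mean was -0.22 in overexpression replicate 1 and -0.081 in overexpression replicate 2. Without wild type replicate 2 it was -0.047, and without wild type replicate 1 it was -0.24. Nupr1, a stress-induced nuclear protein, lay furthest above 0, with 860 and 753 normalised reads in overexpressing cells, against 533 and 339 in wild type cells (log2 fold change 0.92, limma adjusted p = 0.350). Aldh18a1, of proline synthesis, had 3139 and 3213 normalised reads, against 3850 and 4042 (log2 fold change -0.31, limma adjusted p = 0.351). Asns, asparagine synthetase, named after its value was seen, stood at -0.41 (limma adjusted p = 0.548). Other Nrf2 targets divided 17 above and 16 below 0 among 33 tested (median 0.005, 3 unadjusted p-values under 0.05), with Prdx1 at 0.43 as given above and Sqstm1, an autophagy receptor, at -0.29 (limma adjusted p = 0.418).

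Glutamate receptors were sparse in both groups, as is known of HT-22 cells. Of 26 listed, 10 were analysed here and 5 passed the filter, 1 above and 4 below 0 (median -0.36, 1 unadjusted p under 0.05). That median rests on 5 genes and on the low counts of Grid1 and Grin3b: it was -0.061 over the 3 genes with a mean of 50 normalised reads or more, and -0.21 over all 10 with no filter. Grin1, the obligatory NMDA receptor subunit, had 2 and 2.19 normalised reads in overexpressing cells and 0 in both wild type libraries, which allows up to 3.77 and 3.16 normalised reads (3 reads). Grid1, of the delta type, had 7 and 5.11 normalised reads, against 28.9 and 25.3 (log2 fold change -2.00, limma adjusted p = 0.331). Grik5, a kainate receptor subunit, had 218 and 213 normalised reads, against 179 and 148 (log2 fold change 0.40, limma adjusted p = 0.642).

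The genes beside Slc7a11 on chromosome 3 had log2 fold changes of -0.14 to 0.31, against -3.58 for Slc7a11. In the GENCODE M21 order the 3 tested genes on either side were the pseudogenes Gm38261 and Gm38088 and the protocadherin gene Pcdh18 on one side, and Noct, Elf2 and 4930577N17Rik on the other. Pcdh18 had 2699 and 2603 normalised reads in overexpressing cells, against 3258 and 2612 in wild type cells (log2 fold change -0.14, limma adjusted p = 0.809). Noct, a circadian phosphatase of NADP cofactors, had 627 and 545 normalised reads, against 460 and 570 (log2 fold change 0.19, limma adjusted p = 0.787). Elf2, an ETS factor, had 3882 and 3785, against 3178 and 3276 (log2 fold change 0.25, limma adjusted p = 0.479). The 3 others, all under 60 normalised reads, had log2 fold changes of 0.005, 0.31 and 0.16.

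**Figure D5:**
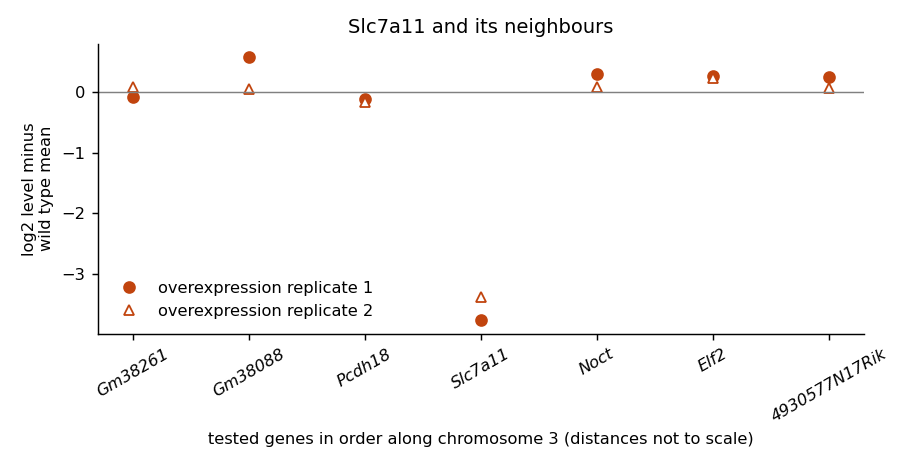
Log2 level of each overexpression library minus the wild type mean, for Slc7a11 and the 3 tested genes on either side of it along chromosome 3. Slc7a11 stands at -3.77 and -3.39, and its neighbours lie between -0.16 and 0.58.

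The genes most like Slc7a11 over the 4 libraries were ranked by the root mean square distance between log2 levels centred on each gene's mean. The 5 nearest were Snora7a, Dyrk4, Cyp3a41a, Gm14308 and Slamf8, at distances of 0.241 to 0.469. Snora7a, a small nucleolar RNA, had 1 and 0.730 normalised reads in overexpressing cells, against 20.1 and 19.0 in wild type cells. Dyrk4, a protein kinase gene, had 10 and 9.49, against 112 and 83.2, and Cyp3a41a, a cytochrome P450 gene with near-identical copies, 35 and 31.4, against 244 and 245. Gm14308 was at 0 in both overexpression libraries, where a count of 0 allows up to 3 reads, against 18.9 and 22.1, and Slamf8, an immune receptor of its family, had 1 and 0.730, against 27.7 and 13.7. All 5 had fewer normalised reads than Slc7a11 in wild type cells. With 4 libraries the ranking rests chiefly on the size of the difference between the groups.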

How the data were processed

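Expression was deposited by the authors as log2 values, already scaled between libraries. HISAT, Cufflinks and build mm9 are named, with no versions, per the submitters' processing notes, and the counting of reads and its use of strand are not stated. Undoing log2(x + 1) gave whole multiples of 1 step per library for 100% of values (tolerance 0.001 read), so the unit is read as log2(normalised reads + 1). Of the symbols 26 had become dates, none of them a member's.

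limma 3.58.1 in R 4.3.3, with a variance trend and group as the only term, was fitted to the deposited log2 values of 15540 genes with a mean of at least 10 normalised reads. P-values are two-sided, with Benjamini-Hochberg adjustment over all genes tested and a threshold of 0.05. The smallest exact permutation p for 1 gene with 2 libraries a group is 0.333, so calls rest on limma's pooled variance (4.10 prior and 6.10 total degrees of freedom). Folds on the log2(value + 1) scale understate the change of low genes, and floors cover counting error only. Members, lists and tests were chosen with earlier results of these data known. Genes named were the members, the 2 smallest p-values of each list, the 3 tested neighbours on each side and the 5 most alike genes. Others are marked where they stand. A gene that this rule names is not reported here. Chromosomes, order and exon lengths came from GENCODE M21 (GRCm38) by identifier, and promoters from RefSeq by symbol. The fit was tested on simulated data in 3 runs. It recovered 99.4% of 2-fold and 100% of 4-fold changes, with 11.3 false calls a run over 15540 genes. Only genes with higher counts were changed there, so low genes and smaller changes were not tested. Each simulated gene took its variance from a trend on the mean, without the spread between genes of the real data. The recovered shares therefore do not measure how many real changes of that size were called here. Alternatives were pseudocounts of 0.1 and 5, no filter, a minimum of 50 normalised reads, other scalings, chromosome medians removed, other limma settings, limma voom, a replicate block, each library left out, and an adjusted p of 0.01.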

Additional observations from a re-analysis of the deposited data

How the results depend on the processing

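Slc7a11 kept its sign in all 16 alternatives, with log2 fold changes between -3.61 and -3.48, and between -3.77 and -3.39 with 1 library left out. Its call was lost in limma without a trend (-3.58) and without either wild type library, and 0 members were then called. The number of genes called, 30, was 16 with no filter, 18 with quantile normalization, 9 without a trend, 72 with robust variances, 11 at an adjusted p of 0.01 and 2 to 75 with 1 library left out. Pathway genes called were 2 with robust variances (Mat2a and Qdpr), 0 to 1 with 1 library left out (Txn2, without overexpression replicate 1), and 0 otherwise except with the block. Members called were 0 to 1 with 1 library left out. The causes of these shifts were not tested. Replicate numbers are shared between the groups, but the deviations of same-numbered libraries correlated at only 0.0068. With the replicate block 60 genes and 2 pathway genes (Mat2a and Qdpr) were called. A block cannot change a fold change in this balanced design, so the -3.58 of Slc7a11 there was fixed in advance. Of 144 values for the other 9 members, 2 moved by at least 1 SD, both with chromosome medians removed (Gpx4 and Aifm2). Of the same 144, 5 had the other sign, 4 of them for Gclc, Gclm and Gsr with 1 library left out. The SD was each gene's own within groups. With 2 libraries a group, leaving 1 out cannot shift a value by more than that SD. The filters, the other limma variance settings and the block leave every fold change as it was. The count of 2 therefore does not measure stability. The 44 and 79 reads of Slc7a11 in the overexpression libraries, the 2 deepest of the 4, limit the precision of its level there.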

Other observations

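Gpx4 belongs to the selenoproteins, which carry selenocysteine, and the other selenoprotein genes were gathered after the data had been seen. Of 17 tested, 5 lay above 0 and 12 below, with a median log2 fold change of -0.046, 0 called by limma or limma voom and 1 unadjusted p under 0.05. Selenom, a selenoprotein of the endoplasmic reticulum, had 1464 and 1426 normalised reads in overexpressing cells, against 1788 and 1756 in wild type cells (log2 fold change -0.29, limma adjusted p = 0.449). Gpx1, the cytosolic glutathione peroxidase, had 5167 and 5393 normalised reads, against 5362 and 5857, with overlapping groups. Txnrd1, the thioredoxin reductase, had 6207 and 8512 normalised reads, against 6425 and 7190, so that the overexpression libraries lay on either side of the wild type pair.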
